A study of Homo sapiens with 15 samples.

Results

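MAP kinase cascade and cyclin-dependent kinase genes were followed for their choice of poly(A) site when regulators of that choice were depleted in HEK293T cells, an established human embryonic kidney line. The members are all genes whose symbol is MAPK, MAP2K, MAP3K, MAP4K or CDK followed by a number and nothing else. The rule found 52 of the 13056 genes in the table: 12 MAPK, 7 MAP2K, 14 MAP3K, 4 MAP4K and 15 CDK genes. It used symbols only and no measured value.

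Every library came from HEK293T cells with a short hairpin RNA. The control hairpin, shControl, had 3 libraries. The knockdowns had 2 libraries each: shHDAC1 against a histone deacetylase, shPABPN1 against the nuclear poly(A)-binding protein, shPCBP2 against a poly(C)-binding protein, shSF3B4 against a subunit of the U2 snRNP, shU2AF2 against the large subunit of the factor that recognises 3' splice sites, and shZNF384 against a zinc finger transcription factor. The labels give all groups the same cell line and repeat 1 protocol text for all of them, and they name neither the number of hairpins per gene nor a clone. Each value is a PDUI, an index of distal site usage that estimates for every gene how much of its RNA uses the farther of its poly(A) sites. It is a fraction that runs to 1, where all transcripts end distally, and a rise therefore stands for a longer 3' end.

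In a MAP kinase cascade, a MAP4K or a small GTPase activates a MAP3K, which phosphorylates a MAP2K, which in turn phosphorylates a MAP kinase on a threonine and a tyrosine. The ERK, JNK and p38 branches carry growth factor, stress and cytokine signals to transcription factors and other kinases. CDKs are serine/threonine kinases that work with a cyclin: CDK1, CDK2 and CDK6 drive the cell cycle, while CDK7, CDK8, CDK9, CDK13 and CDK19 act on RNA polymerase II and its Mediator. The site at which a transcript ends fixes how much 3' UTR it carries, and with it the binding sites for microRNAs and proteins.

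Of the 52 members, 51 had a PDUI in all 15 libraries. MAPK4 had none in either shU2AF2 library and was not tested there. The table gives fractions without read counts, so the depth behind a value is unknown and no interval from counting can be given. The controls have properties that touch every comparison with shControl. Library shControl replicate 1 had the lowest mean PDUI of the 15 libraries over the 11353 genes with complete values, 0.522 against 0.533 to 0.585 in the others. Over the members its mean was 0.516, with 0.576 and 0.568 in the other control libraries and 0.511 to 0.595 across all 15. The shControl library names also carry the suffix nuc, which the knockdown names lack. If it marks another preparation, that preparation and the knockdown cannot be told apart. The labels do not say whether replicates were separate cultures, so p-values measure only the spread between these libraries. The 2 shSF3B4 libraries are called A and B, because their titles and library names number them differently.

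The ends of the transcripts listed in the table are shown for 6 of the 10 members called in shU2AF2. Their transcripts have the same version in GENCODE release 29 (hg38). MAP2K6 and MAP4K2 have another version there, and the ends of the rest are not shown. Each run holds the last 30 bases of the annotated transcript, on the transcribed strand, 5′ to 3′. Capitals mark the poly(A) signal hexamers AATAAA or ATTAAA, searched on that strand only, where present.
MAPK8: aaagaaaaaagtggtatgaaaattatgaaa
MAPK9: agtacttaataccacaggagtggaaggaca
MAPK13: tgaaAATAAAgttgtattctattccaatcc
MAP2K1: ataaaaggcccattcctttttagATTAAAa
MAP3K7: taaaattcagattcctattctaaactggta
MAP3K9: gagacttgAATAAAactgttataacgatta
Neither hexamer stands in these letters for MAPK8, MAPK9 and MAP3K7. MAPK13 and MAP3K9 hold AATAAA, and MAP2K1 holds ATTAAA. Of the 28 members with the same transcript version, 13 held AATAAA, 4 held ATTAAA alone and 11 held neither. Over all 7169 such transcripts of the table, 48.2% held AATAAA and 11.2% ATTAAA alone. An absent hexamer says only that these letters are not in the last 30 annotated bases.

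In the order printed, the ends lie at chr10:48439331-48439360 on the plus strand, chr5:180233143-180233172 on the minus strand, chr6:36144495-36144524 on the plus strand, chr15:66492283-66492312 on the plus strand, chr6:90513573-90513602 on the minus strand and chr14:70722526-70722555 on the minus strand. All 6 fall in the last exon, whose length ran from 1811 bases in MAP2K1 to 8339 bases in MAP3K9. The MAPK8 last exon covers chr10:48434879-48439360, 4482 bases, and GENCODE annotates 3 other transcript ends inside it more than 100 bases upstream of its end. The MAP3K7 last exon covers chr6:90513573-90516681, 3109 bases, and holds 2 other such ends. In 8 of the 52 members the last exon overlaps an exon of a gene on the opposite strand, among them MAP2K1, which overlaps SNAPC5, and MAP3K3, which overlaps LIMD2. Whether the reads kept their strand is not stated, so reads of such pairs cannot be told apart.

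The members ranged over the whole scale of site choice. Mean PDUI over all libraries was at least 0.9 in 7 members, under 0.2 in 6 and between these in 39, with a median of 0.578. CDK6, a partner of D-type cyclins, stood at 1 in all 15 libraries. MAP3K2 averaged 0.992, CDK14 0.976, the Mediator kinase CDK19 0.958 and MAP2K4, an activator of JNK, 0.942. At the other end, CDK7, the kinase of TFIIH and of the CDK-activating complex, averaged 0.0733 and ranged from 0.01 to 0.19. MAP2K1, which encodes the ERK activator MEK1, averaged 0.0873, MAP4K2 0.143 and CDK9, the kinase of P-TEFb, 0.154. These low members ended mostly at a proximal site in every library.

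By role, the median member mean was 0.733 for the CDKs, 0.605 for the MAP4Ks, 0.587 for the MAP3Ks, 0.539 for the MAP kinases and 0.402 for the MAP2Ks. The CDKs and the MAP2Ks each reached from under 0.1 to over 0.9. The pooled SD between libraries of a group had a median of 0.0511 over the members and 0.056 over all genes. The least steady members were MAP3K5, which ran from 0.35 to 1, and MAP3K13, from 0.26 to 1, with pooled SDs of 0.2 and 0.189. Changes of ordinary size could not have been called for these 2.

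**Figure D1:**
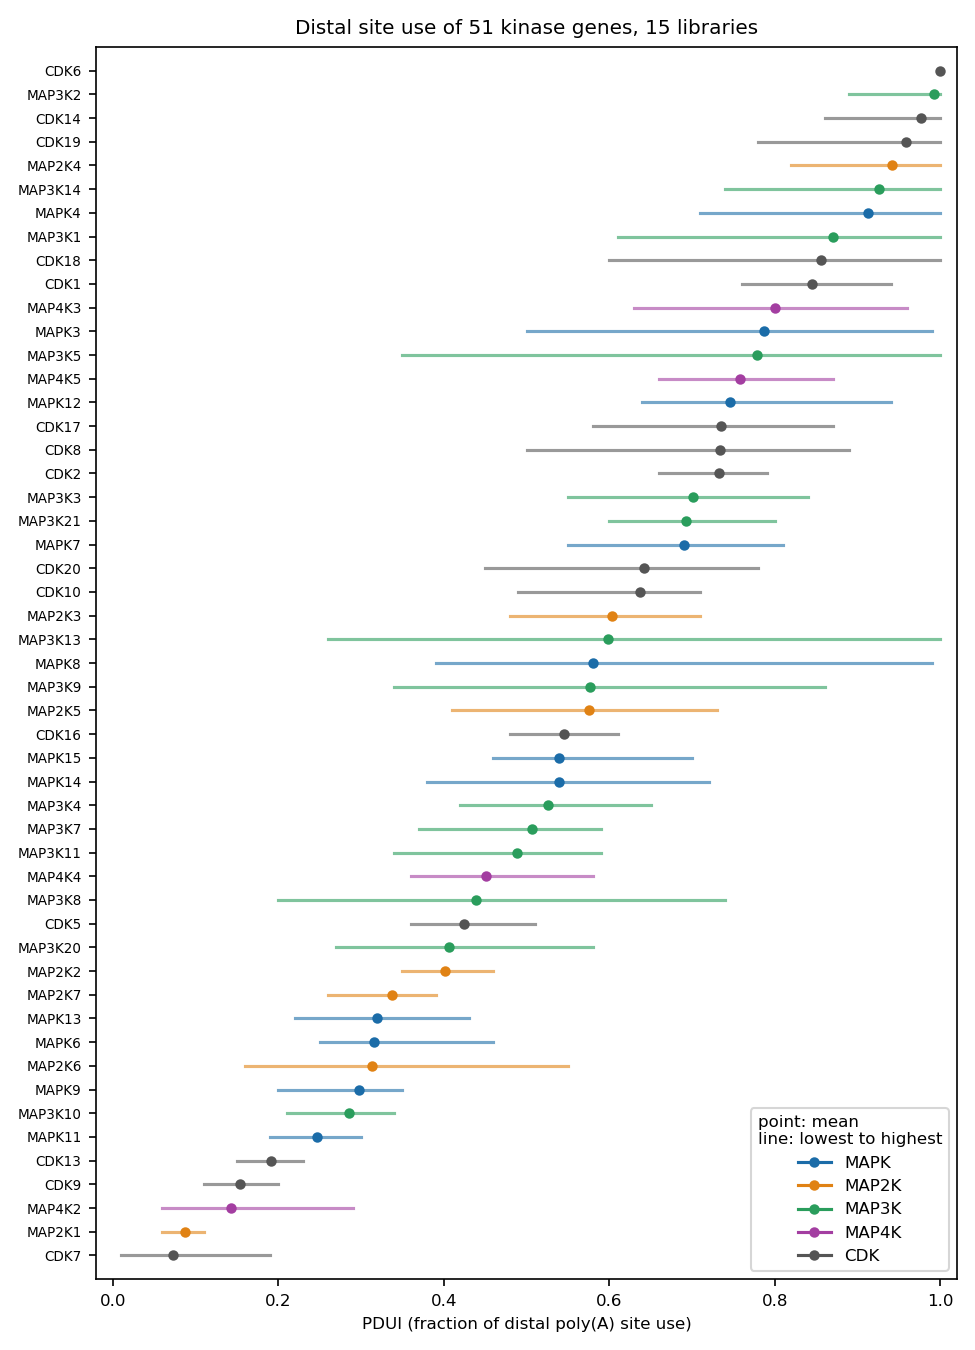
PDUI (fraction, horizontal axis) of 51 of the 52 members, with a point at the mean over its libraries, a line from the lowest to the highest library, and colours for the 5 classes. CDK6 sits at 1 with no range and CDK7 never exceeds 0.19, while the lines of MAP3K5 and MAP3K13 run from 0.35 and 0.26 up to 1.

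U2AF2 depletion had the most called members of the 6 knockdowns. In shU2AF2, 10 of 51 tested members differed from shControl (19.6%), while 7.27% of all 12362 tested genes did, by limma on PDUI with Benjamini-Hochberg adjustment over all genes. Of these, 8 rose, beside 5.88% of all genes, and 2 fell, beside 1.39%. With libraries centred on their medians 6 members were called, 3 of them higher. The called members belonged to all 4 tiers of the cascade, and none was a CDK. The 2 shU2AF2 libraries both lay above all shControl libraries in 14 members (27.5%, with 19.2% among all genes) and both below in 9 (17.6%, with 9.83%). The median difference was 0.03 over the members and 0.0117 over all tested genes.

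MAPK8, which encodes the stress kinase JNK1, showed the largest difference of any member in any comparison with shControl. Its PDUI was 0.42, 0.50 and 0.45 in shControl replicates 1 to 3 and 0.99 and 0.95 in shU2AF2 replicates 1 and 2. In the other knockdowns it was 0.44 and 0.39 in shHDAC1, 0.63 and 0.56 in shPABPN1, 0.60 and 0.57 in shPCBP2, 0.50 and 0.53 in shSF3B4, and 0.59 and 0.58 in shZNF384. The shU2AF2 libraries thus stood apart from all 13 others, near complete distal use. The mean went from 0.457 ± 0.0404 (SD, n = 3) to 0.97 ± 0.0283 (SD, n = 2), a difference of 0.513 (SE 0.035, limma adjusted p = 5.05e-05).

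MAPK9 encodes JNK2, the closest relative of JNK1, and moved the other way. It stood at 0.31 in each of the 3 shControl libraries and at 0.20 and 0.21 in shU2AF2, below every other library. The 10 libraries of the other knockdowns lay between 0.27 and 0.35. MAPK9 fell by 0.105 in shU2AF2 (SE 0.019, limma adjusted p = 0.00958), from 0.31 ± 0 (SD, n = 3) to 0.205 ± 0.0071 (SD, n = 2). At 2 decimals the control values are identical, so their own spread is under the rounding of the table.

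Among the other MAP kinases, MAPK13, the p38 delta kinase, read 0.23, 0.22 and 0.24 in shControl and 0.43 and 0.42 in shU2AF2. It rose by 0.195 (SE 0.0354, limma adjusted p = 0.00983). Its values were also above every control library in shPABPN1, at 0.29 and 0.35, in shPCBP2, at 0.43 and 0.36, in shSF3B4, at 0.34 and 0.33, and in shZNF384, at 0.40 and 0.27, without a call in any of these. Only in shHDAC1, at 0.23 and 0.25, did it overlap the controls. MAPK15, an atypical MAP kinase also called ERK8, read 0.51, 0.48 and 0.50 in shControl and 0.60 and 0.70 in shU2AF2, and rose by 0.153 (SE 0.037, limma adjusted p = 0.0386). The table lists MAPK15 by a retained-intron transcript, so its PDUI may not be that of the coding transcripts.

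In the tier above, MAP2K6, an activator of p38 kinases, was at 0.24, 0.16 and 0.25 in shControl and at 0.40 and 0.42 in shU2AF2. The groups did not overlap, and MAP2K6 rose by 0.193 (SE 0.0442, limma adjusted p = 0.03). MAP2K1 was at 0.06, 0.07 and 0.08 in shControl and at 0.11 and 0.09 in shU2AF2, a rise of 0.03 (SE 0.00727, limma adjusted p = 0.0394). The other 5 MAP2Ks had no call.

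MAP3K7 encodes TAK1, which links cytokine and Toll-like receptors to JNK, p38 and NF-kappa B. It read 0.58, 0.54 and 0.59 in shControl, 0.39 and 0.38 in shU2AF2 and 0.37 in both shSF3B4 libraries. All 8 libraries of the other knockdowns were between 0.51 and 0.59, so the 4 libraries of the 2 splicing factor knockdowns formed a separate low set. MAP3K7 fell by 0.185 in shU2AF2 (SE 0.0232, limma adjusted p = 0.00126) and by 0.2 in shSF3B4 (SE 0.0232, limma adjusted p = 0.00123). The 2 comparisons share the 3 control libraries and are not independent.

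MAP3K9, the mixed-lineage kinase MLK1, moved towards the distal site. It was at 0.34, 0.49 and 0.49 in shControl, 0.66 and 0.78 in shU2AF2, 0.67 and 0.73 in shSF3B4, and 0.86 and 0.72 in shZNF384. The 6 libraries of shHDAC1, shPABPN1 and shPCBP2 lay between 0.41 and 0.54. MAP3K9 rose by 0.28 in shU2AF2 (SE 0.0647, limma adjusted p = 0.0318) and by 0.35 in shZNF384 (limma adjusted p = 0.0396). The difference in shSF3B4 was 0.26 and missed the threshold (limma adjusted p = 0.053).

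MAP4K2, which encodes a kinase upstream of JNK in tumour necrosis factor signalling, was at 0.07, 0.12 and 0.06 in shControl and at 0.29 and 0.28 in shU2AF2. The highest value in the remaining knockdowns was 0.19, in shPABPN1 replicate 2, so shU2AF2 again lay apart from all other libraries. MAP4K2 rose by 0.202 in shU2AF2, from 0.0833 ± 0.0321 (SD, n = 3) to 0.285 ± 0.0071 (SD, n = 2), with SE 0.02 and limma adjusted p = 0.000312. In shPABPN1, at 0.16 and 0.19, it rose by 0.0917 (limma adjusted p = 0.0339).

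The calls of MAPK8, MAP4K2 and MAP3K7 in shU2AF2 held when any 1 of the 15 libraries was left out, with a highest adjusted p of 0.000635, 0.00434 and 0.016. MAPK9 and MAPK13 lost theirs only without either of the 2 shU2AF2 libraries (up to 0.0715 and 0.0675), while MAP3K9, MAP2K6, MAPK15 and MAP2K1 lost theirs in 5, 6, 12 and 13 of the 15 omissions (up to 0.229, 0.167, 0.272 and 0.253), each of them including that of shControl replicate 1. With libraries centred on their medians, the difference of MAP2K1 shrank to 0.0067 and lost its call, and MAPK13, MAPK15 and MAP2K6 lost theirs too (adjusted p of 0.0541, 0.216 and 0.0974).

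**Figure D2:**
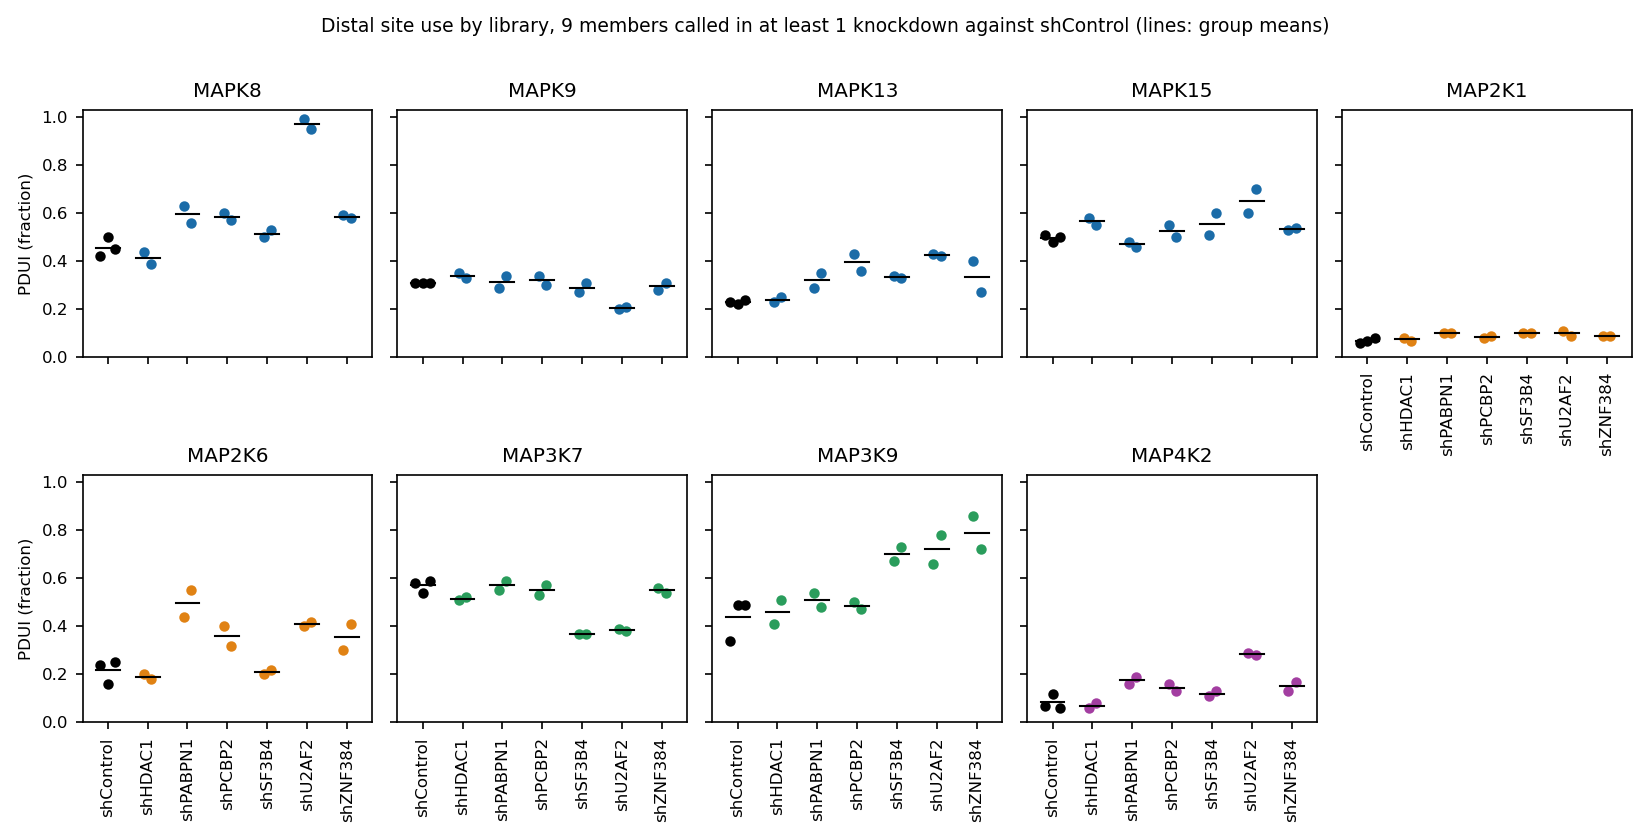
PDUI (fraction, vertical axis) in every library of 9 of the 10 members called in at least 1 knockdown against shControl, 1 panel per gene, with groups on the horizontal axis, a point per library and a line at each group mean. MAPK8 is near 1 in shU2AF2 alone, and MAP3K7 is low in shSF3B4 and shU2AF2.

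Other members lay outside the control range in shU2AF2 without a call. MAP3K8, the kinase TPL2, had 0.45, 0.37 and 0.29 in shControl and 0.74 and 0.58 in shU2AF2, a difference of 0.29 (limma adjusted p = 0.0962). MAP3K1 had 0.91, 0.83 and 0.93 in shControl and 0.82 and 0.69 in shU2AF2 (difference −0.135, limma adjusted p = 0.455). CDK8, a Mediator kinase, had 0.83, 0.78 and 0.77 in shControl and 0.64 and 0.69 in shU2AF2 (difference −0.128, limma adjusted p = 0.429).

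In shSF3B4, against the other splicing factor, 2 of 52 members differed from shControl (3.85%), beside 5.42% of all tested genes, with 4.26% higher and 1.16% lower. Besides the fall of MAP3K7, MAP2K1 rose by 0.03 (limma adjusted p = 0.0474), from 0.06, 0.07 and 0.08 to 0.10 in both libraries. The MAP2K1 call was lost in 12 of 15 omissions of 1 library (adjusted p up to 0.192, shControl replicates 1 and 2 among them) and in the centred values, where the difference was 0.0017. MAP3K7 kept its call in all 15 (up to 0.0122). With only the compared groups in the fit, MAP3K7 was not called in shSF3B4 (limma adjusted p = 0.0751). In 7 members both shSF3B4 libraries were above all controls (13.5%, with 17.1% of all genes) and in 4 both were below (7.69%, with 8.3%). MAP3K4, an activator of p38 and JNK, was at 0.58, 0.45 and 0.42 in shControl and at 0.65 and 0.61 in shSF3B4 (difference 0.147, limma adjusted p = 0.141). Without shControl replicate 1 MAP3K4 was called, with a difference of 0.195 (adjusted p = 0.0199), and 3 members were called in all, 1 of them shared with the 2 above. Over all genes the calls went from 661 to 536. MAP3K2, at 1 in every library outside shSF3B4, was at 0.89 and 0.99 there (difference −0.06, limma adjusted p = 0.191). MAPK8, at 0.50 and 0.53, overlapped the controls in shSF3B4.

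In shPABPN1, 2 of 52 members also differed from shControl (3.85%), beside 4.72% of all tested genes, with 3.99% higher and 0.725% lower. Both members rose. MAP2K6 was at 0.24, 0.16 and 0.25 in shControl and at 0.44 and 0.55 in shPABPN1, the highest values of MAP2K6 in the series. It rose by 0.278, to 0.495 ± 0.0778 (SD, n = 2; SE 0.0442, limma adjusted p = 0.00743). MAP4K2 was the other called member. MAP2K6 kept its call whichever library was left out (adjusted p up to 0.0497), and MAP4K2 lost it in 10 of 15 omissions (up to 0.179), among them shControl replicates 1 and 3.

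More members lay below the controls in shPABPN1 than in any other knockdown. Both libraries were below all shControl libraries in 11 members (21.2%, with 13.3% of all genes) and above them in 8 (15.4%, with 12.7%). The median difference was −0.0325 over the members and −0.0093 over all tested genes. CDK8 had 0.50 and 0.67 against controls of 0.83, 0.78 and 0.77, a difference of −0.208 (limma adjusted p = 0.185). CDK20, a kinase of the cell cycle and cilia, had 0.50 and 0.45 against 0.57, 0.64 and 0.73 (difference −0.172, limma adjusted p = 0.199). MAPK4 had 0.91 and 0.71 against 0.95, 1 and 1 (difference −0.173, limma adjusted p = 0.364). None of these 3 passed the test. Without shControl replicate 1 the count of called members was 4, with MAP2K6 higher and MAP2K7 (−0.115, adjusted p = 0.00899), MAP3K10 (−0.115, 0.0159) and CDK10 (−0.135, 0.0434) lower. Over all genes the calls rose too, from 579 to 1048, so the larger count is not particular to the members. CDK8 and CDK20 are listed by transcripts annotated as nonsense-mediated decay and retained intron.

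In shZNF384, 1 of 52 members was called (1.92%), beside 1.5% of all tested genes, 1.44% higher and 0.0638% lower. It was MAP3K9, at the values given above. That call was lost in 12 of 15 omissions of 1 library (adjusted p up to 0.191), each shControl replicate among them. Both libraries were above all controls in 11 members (21.2%, with 20.8% of all genes) and below in 1 (1.92%, with 3.65%). MAPK14, the p38 alpha kinase, had 0.38, 0.52 and 0.52 in shControl and 0.72 and 0.60 in shZNF384 (difference 0.187, limma adjusted p = 0.143). MAPK12, p38 gamma, had 0.64, 0.79 and 0.72 in shControl and 0.82 and 0.94 in shZNF384 (difference 0.163, limma adjusted p = 0.188). The 1 member below the controls was MAP3K14, the NF-kappa B-inducing kinase, at 0.83 and 0.89 against 1, 1 and 0.90 (difference −0.107, limma adjusted p = 0.556).

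No member was called in shPCBP2 or shHDAC1 by limma. In shPCBP2 1.17% of all tested genes were called, with 1.05% higher and 0.121% lower. An unadjusted limma p under 0.05, a looser threshold, was found in 6 of 52 members, and its share over all genes was not counted. The lowest adjusted p was that of MAPK13, 0.0784, with a difference of 0.165. MAPK3, which encodes ERK1, was at 0.92 and 0.91 against controls of 0.52, 0.84 and 0.66 (difference 0.242, limma adjusted p = 0.283). MAP2K6 was at 0.40 and 0.32, above all controls (difference 0.143, limma adjusted p = 0.225). Of the 52 members, 8 had both libraries above the controls (15.4%, with 16.4% of all genes). The only one below was MAP3K3, at 0.67 and 0.70 against 0.73, 0.77 and 0.79 (1.92%, with 5.27%).

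In shHDAC1, 0.0243% of all tested genes were called. The looser threshold of an unadjusted limma p under 0.05 was met by 4 of 52 members, and its share over all genes was not counted. MAP3K3, also called MEKK3, had the lowest adjusted p, 0.395, at 0.57 and 0.55 against 0.73, 0.77 and 0.79 (difference −0.203). Its last exon overlaps an exon of LIMD2 on the other strand. MAPK14 was at 0.63 in both libraries against 0.38, 0.52 and 0.52 (difference 0.157, limma adjusted p = 0.653). MAP4K4 was at 0.41 and 0.36 in shHDAC1, and at 0.40 and 0.39 in shSF3B4, against controls of 0.47, 0.44 and 0.45 (limma adjusted p = 0.884 and 0.538). MAPK15 was at 0.58 and 0.55 (limma adjusted p = 0.878), CDK13 at 0.22 and 0.23 (0.663) and MAPK4 at 0.91 and 0.89 (0.952), each outside the control range without a call. The members above and below all controls numbered 4 each (7.69%, with 8.18% and 7.07% of all genes).

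**Figure D3:**
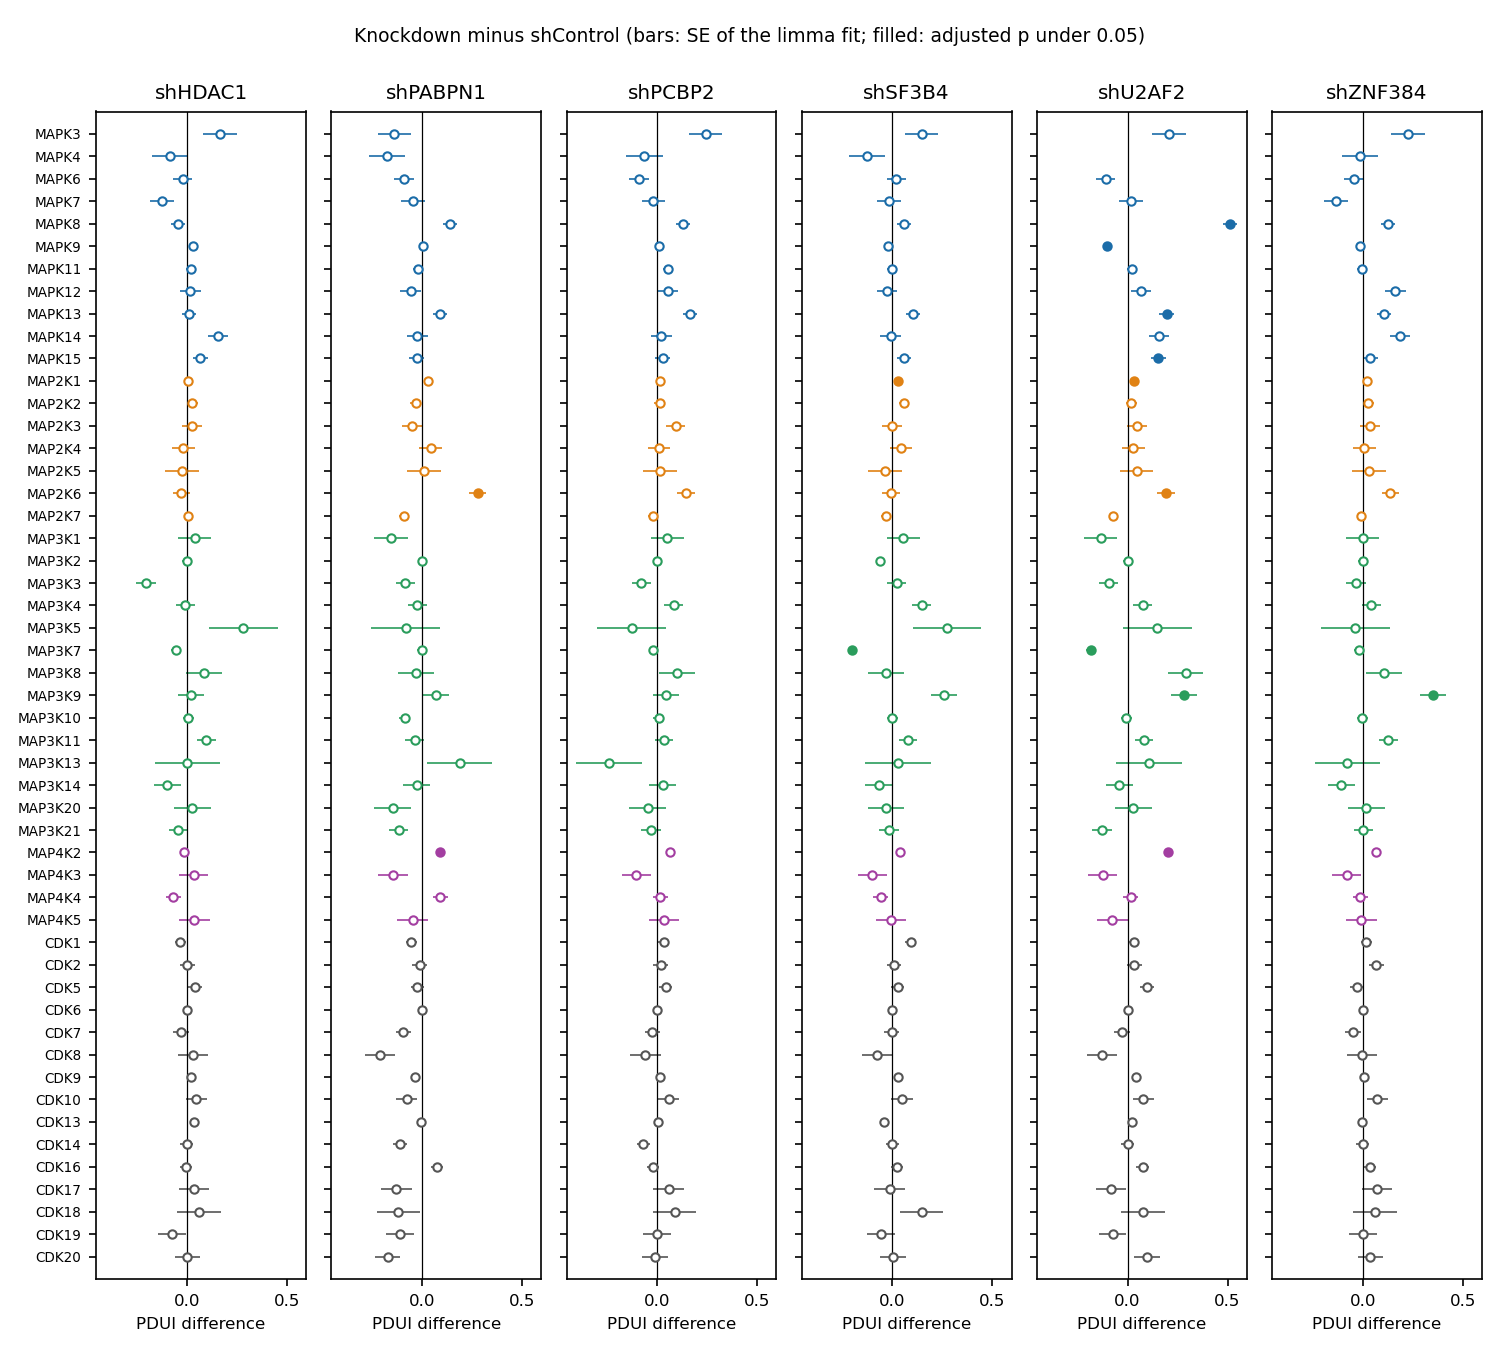
Difference in PDUI (knockdown minus shControl mean, horizontal axis) for 51 of the 52 members in each of the 6 knockdowns, 1 panel per knockdown, with bars for the SE of the limma fit and filled points for an adjusted p under 0.05. The shU2AF2 panel holds 9 filled points, with MAPK8 farthest from 0 at 0.513, and no CDK is filled in any panel.

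No CDK was called against shControl in any of the 6 knockdowns. Of all tested genes 0.0243% to 7.27% were called, so for 15 CDKs an absence of calls is near the background. The lowest adjusted p of a CDK was 0.107, for CDK13, a kinase of elongating RNA polymerase II, in shSF3B4. CDK13 had 0.17, 0.20 and 0.20 in shControl and 0.15 in both shSF3B4 libraries, and without shControl replicate 1 its difference there was −0.05 with an adjusted p of 0.0418. CDK14 stood at 1 in all shControl libraries and was lower in both shPABPN1 libraries, at 0.86 and 0.92 (limma adjusted p = 0.108), and in shPCBP2 replicate 2, at 0.86. In the other knockdowns it remained at 1. CDK1, the mitotic kinase, was at 0.84, 0.83 and 0.83 in shControl and at 0.94 and 0.91 in shSF3B4 (limma adjusted p = 0.109). By role, the median difference in shPABPN1 was −0.0117 for the 3 cell cycle CDKs, −0.0933 for the 5 transcription CDKs and −0.11 for the 7 others. Over all tested genes it was −0.0093. In shU2AF2 the same classes had 0.0317, −0.0283 and 0.0767, another order. The classes are small, and CDK6, a cell cycle CDK, did not vary.

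Comparisons among the knockdowns use no shControl value beyond its part in the variance. Over the 6 knockdowns, 7 of 51 members differed (13.7%), beside 12.9% of all tested genes, by the moderated F-test of limma. They were MAPK8, whose knockdown means spanned 0.555 (adjusted p = 0.000302), MAP3K7 with a span of 0.2 (0.00188), MAP4K2 with 0.215 (0.00267), MAP2K6 with 0.305 (0.0141), MAPK9 with 0.135 (0.0196), MAP3K9 with 0.33 (0.0358) and CDK13 with 0.075 (0.0399). The span is the highest minus the lowest knockdown mean. With libraries centred on their medians, MAPK9 and CDK13 lost the call of this F-test (adjusted p of 0.0642 and 0.0848). MAPK8, MAP3K7, MAP4K2 and MAP2K6 kept this call in all 15 omissions of 1 library, and MAPK9, MAP3K9 and CDK13 lost it in 3, 12 and 12 (adjusted p up to 0.113, 0.0841 and 0.133).

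Against the mean of the other 5 knockdowns, shU2AF2 differed in 5 of 51 members (9.8%), beside 6.49% of all genes, of which 4.46% were higher and 2.03% lower. MAPK8 was higher by 0.431 (limma adjusted p = 5.63e-05) and MAP4K2 by 0.153 (0.000764). MAP3K7 was lower by a difference of −0.126 (0.0054) and MAPK9 of −0.107 (0.00432). With libraries centred on their medians, MAP3K7 lost its call (limma adjusted p = 0.0536). MAPK8 and MAP4K2 kept these calls in all 15 omissions. MAPK9 lost its call without shU2AF2 replicate 1, and MAP3K7 without either shU2AF2 library (adjusted p up to 0.0585 and 0.075).

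In the same contrast shPABPN1 differed in 6 of 51 members (11.8%), beside 11.2% of all genes, with 4.19% higher and 7.05% lower. MAPK3 was at 0.50 and 0.57 in shPABPN1, while the 10 libraries of the other knockdowns lay between 0.80 and 0.99, a difference of −0.336 (limma adjusted p = 0.0216). Against shControl, which spread from 0.52 to 0.84, MAPK3 in shPABPN1 overlapped the controls. CDK9 was at 0.11 in both shPABPN1 libraries and at 0.14 to 0.20 in the other knockdowns (difference −0.056, limma adjusted p = 0.047). CDK20 (−0.198, adjusted p = 0.0486) and the mixed-lineage kinase gene MAP3K10 (−0.088, 0.0445) were lower too. MAP2K6 (0.19, 0.0176) and MAP3K7 (0.096, 0.0195) were higher, the latter against a mean that holds the low shSF3B4 and shU2AF2 values. With libraries centred on their medians the contrast called 5 members, 4 of them higher and 3 of the 5 shared with the 6 above. There the differences of CDK9 and MAP3K10 shrank to −0.004 and −0.036, and CDK9, MAP3K10 and CDK20 lost their calls (adjusted p of 0.888, 0.273 and 0.103). Leaving out either shPABPN1 library removed all or most of the 6 calls, and the calls over all genes fell too. Such a fit has only 1 shPABPN1 library. Without shControl replicate 1 there were 10 called members. The calls over all genes were 1288 in the main fit, 898 centred and 2013 without shControl replicate 1.

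For shSF3B4 this contrast called 4 of 51 members (7.84%), beside 6.99% of all genes, with 3.59% higher and 3.39% lower. MAP3K7 was lower (−0.144, limma adjusted p = 0.0023), as were CDK13 (−0.05, 0.0182) and MAP2K6 (−0.152, 0.0429). CDK1 was higher, at 0.925 against 0.832 (0.0468). For shHDAC1 it called 4 members, all lower, beside 5.84% of all genes called and 5.29% called lower: MAPK8 (−0.235, limma adjusted p = 0.00286), MAP4K2 (−0.105, 0.00788), MAP2K6 (−0.176, 0.0264) and MAPK13 (−0.122, 0.0488). In these 4 the shHDAC1 libraries sat at the level of shControl and the other knockdowns above or around it: MAPK8 was at 0.44 and 0.39 in shHDAC1 and at 0.50 to 0.99 in the others. MAP3K7 in shSF3B4 kept its call in all 15 omissions of 1 library, CDK13 lost it without either shSF3B4 library, and CDK1 and MAP2K6 lost it in 11 and 10 omissions. Leaving out either shHDAC1 library removed most or all of the 4 shHDAC1 calls, and the calls over all genes fell too. With libraries centred on their medians, MAP3K7 was the only one still called for shSF3B4. For shHDAC1, MAPK8 and MAP4K2 were. No member was called for shPCBP2 or shZNF384, beside 1.39% and 0.646% of all genes. At the looser threshold of an unadjusted limma p under 0.05 there were 4 and 5 members, with no share over all genes counted.

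The mean of the 6 knockdowns differed from shControl in 4 of 51 members (7.84%), beside 3.4% of all genes, with 3.11% higher and 0.288% lower. MAPK8 was higher by 0.154 (limma adjusted p = 0.0122), MAP4K2 by 0.0742 (0.0238) and MAPK13 by 0.112 (0.0476), and MAP3K7 was lower by a difference of −0.08 (0.033). None of the 4 was called without shControl replicate 1, none without shControl replicate 3, and none in centred values. Over all genes the calls went from 389 to 137, 108 and 4 in these settings. The shU2AF2 and shSF3B4 libraries hold the low MAP3K7 values, and the shU2AF2 libraries the high MAPK8 values, that enter these averages.

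The genes around the cascade were counted from lists that were chosen with earlier results of these data known. Their counts are therefore no test of a list. Of 16 dual-specificity and related MAP kinase phosphatases, which switch the kinases off, 3 rose in shSF3B4 and 1 in shU2AF2, where 4.26% and 5.88% of all tested genes were called higher. The count in shU2AF2 is near that background. DUSP8 went from 0.253 ± 0.0404 (SD, n = 3) to 0.44 ± 0.0141 in shSF3B4 and 0.485 ± 0.0071 in shU2AF2 (SD, n = 2 each; limma adjusted p = 0.00262 and 0.000518). DUSP10 (difference 0.413, adjusted p = 0.0164) and DUSP4 (0.17, 0.0354) rose in shSF3B4. Of 11 kinases downstream of the MAP kinases, 2 rose in shPABPN1, MAPKAPK5 (0.162, limma adjusted p = 0.0203) and the ribosomal S6 kinase gene RPS6KA3 (0.153, 0.0251), and RPS6KA3 also in shZNF384 (0.168, 0.0396). Of all tested genes, 3.99% and 1.44% were called higher in these knockdowns.

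Of the MAP kinase target transcription factors, FOSL2 rose in shSF3B4 (0.437, limma adjusted p = 0.00382) and in shU2AF2 (0.267, 0.0354), and MEF2A fell in shU2AF2 (−0.262, 0.0477). Of the genes between receptors and Raf, the adaptor GRB2 rose in shPCBP2 (0.08, limma adjusted p = 0.0419) and shSF3B4 (0.075, 0.0189), and the docking protein gene GAB1 fell in shU2AF2 (−0.278, 0.0372). Of the genes that feed stress signals to MAP3Ks, GADD45A fell in shPABPN1 (−0.118, limma adjusted p = 0.0138) and MINK1 rose in shU2AF2 (0.283, 0.0232). The tested genes numbered 19 or 20 target factors, 22 between receptors and Raf, and 19 or 20 stress genes. Over all tested genes, 4.72% were called in shPABPN1, 1.17% in shPCBP2, 5.42% in shSF3B4 and 7.27% in shU2AF2. With 1 or 2 calls per list and knockdown, the counts are too small to set these lists apart from all genes.

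On the CDK side, none of the 10 measured CDK inhibitor genes was called in any knockdown against shControl. For 10 genes that is near the background, with 0.0243% to 7.27% of all tested genes called. Against the other 5 knockdowns, CDKN1A (−0.206, limma adjusted p = 0.0195) and CDKN2C (−0.122, 0.0378) were lower in shPABPN1. Of all genes, 7.05% were lower there. HEXIM1 differed among the 6 knockdowns by a span of 0.285 (moderated F-test of limma, adjusted p = 0.0437), as did 12.9% of all genes. Of 18 cyclins, CCNB2 rose (0.06, limma adjusted p = 0.0383) and CCNY, the partner of CDK14 and CDK16, fell (−0.0867, 0.0425) in shU2AF2, and CCNB1 rose in shSF3B4 (0.0917, 0.0467). CABLES1, a CDK adaptor, fell in shSF3B4 (−0.125, limma adjusted p = 0.0371) and in shU2AF2 (−0.12, 0.0349). In the RB and E2F list of 14 genes, E2F7 fell in shPABPN1 (−0.217, limma adjusted p = 0.0171), shPCBP2 (−0.227, 0.0366) and shU2AF2 (−0.282, 0.00265). TFDP2, a dimer partner of E2F proteins, rose in shPABPN1 (0.185, 0.00552), shSF3B4 (0.12, 0.0394) and shU2AF2 (0.165, 0.0065). E2F6 rose in shU2AF2 (0.213, 0.0342), and the Mediator subunit gene MED13 fell in shPABPN1 (−0.433, limma adjusted p = 0.00116) and shU2AF2 (−0.283, 0.00703). The comparisons with shControl share their control libraries. Over all tested genes, 4.72% were called in shPABPN1, 1.17% in shPCBP2, 5.42% in shSF3B4 and 7.27% in shU2AF2. Called cyclins were 1 of 18 in shSF3B4 and 2 in shU2AF2, near these shares. CABLES1 and MED13 come from 23 measured CDK regulators, with at most 2 called per knockdown, near them too. In the RB and E2F list the calls were 2, 1, 1 and 3, in the order of these shares, too few genes to compare.

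Over the 11 lists, with scaffolds and like-named kinases included, 44 differences from shControl were called, and all 44 kept their sign with centred libraries, where 26 lost the call. Among those, CCNB2 in shU2AF2 shrank to 0.0367, and GRB2 to 0.0467 in both shPCBP2 and shSF3B4. Without shControl replicate 1, 15 lost it. Whichever library was left out, 13 were called: DUSP8, MAPK1IP1L and MAPK8IP2 in shSF3B4 and shU2AF2, MAPK8IP2, LAMTOR3, TFDP2 and MED13 in shPABPN1, FOSL2 in shSF3B4, and MAPK8IP1 and E2F7 in shU2AF2.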

How the data were processed

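RNA was enriched on oligo(dT) beads and sequenced from 15 libraries, and the labels' protocols name both nuclear and total RNA. The authors deposited 1 PDUI per gene and library as a fraction with 2 decimals and a floor of 0.001, on hg38 per the submitters' processing notes. Which aligner, program and annotation they used is not given in the sources used here. Values entered limma 3.58.1 (R 4.3.3) as deposited: all 15 libraries, 1 mean per group, eBayes with a trend on the mean, 8 residual degrees of freedom. A gene was tested when both knockdown libraries and at least 2 shControl libraries had values, and called at an adjusted p under 0.05 (Benjamini-Hochberg, two-sided, over all genes of a comparison). The fit was tested on simulated data. Identifiers of 12704 of the 13056 transcripts were found in GENCODE release 29, the source of sequences and exons. Members named with values are those called in any comparison, the 3 largest rises and falls beyond the control range per knockdown and the 5 highest and lowest means, 32 in all. MAP3K5, MAP3K13, CDK10 and MAP2K7 were chosen after they were seen. Of the 52 members, 1 is counted but not reported here. Other pathway genes are named when called against shControl, up to 3 per list and comparison. Those called only in comparisons among the knockdowns are not named, except CDK inhibitors. Members and lists were chosen with earlier results of these data known. No count or depth was available, and how far each target was depleted was not tested.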

Additional observations from a re-analysis of the deposited data

How the results depend on the processing

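Over 248 gene results and 5572 alternative values, 5268 stayed on their side of the threshold, 276 lost a call, 28 gained one and 0 changed sign among called results. Of 45 called gene results, 13 kept the call whichever library was omitted, 23 lost it with libraries centred on their medians, and all 45 kept their sign there. Centring gave 1 called member for shSF3B4, 6 for shU2AF2, 0 for shZNF384 and 0 for the mean of 6 knockdowns. Of the 6 in shU2AF2, 5 were shared with the main fit. Against the other 5, centring gave 2, 1 and 3 for shHDAC1, shSF3B4 and shU2AF2. Fitting only the groups compared gave 0 for shPABPN1, 1 for shSF3B4, 4 for shU2AF2 and 0 for shZNF384. The 1 in shSF3B4 was not among the 2 of the main fit. MAP3K7 and MAP2K1 both lost their calls in shSF3B4 there (limma adjusted p of 0.0751 and 0.185). Against the other 5 this fit gave 2 for shSF3B4. Without the variance trend shSF3B4 had 1, and with complete genes only shPABPN1 had 4. Leaving out 1 library gave 0 to 0 called members for shHDAC1, 1 to 4 for shPABPN1, 0 to 1 for shPCBP2, 1 to 3 for shSF3B4, 5 to 10 for shU2AF2, 0 to 1 for shZNF384, 0 to 4 for the mean and 4 to 10 among knockdowns. Against the other 5 it gave 0 to 5 for shHDAC1, 0 to 10 for shPABPN1, 0 to 1 for shPCBP2, 2 to 5 for shSF3B4, 3 to 8 for shU2AF2 and 0 to 1 for shZNF384. Centring also cut the calls over all genes, from 579 to 362 in shPABPN1, 145 to 4 in shPCBP2, 661 to 210 in shSF3B4, 899 to 391 in shU2AF2, 188 to 0 in shZNF384, 3 to 0 in shHDAC1, 389 to 4 for the mean and 1474 to 904 among knockdowns. Against the other 5 it cut them from 669 to 204 in shHDAC1, 159 to 18 in shPCBP2, 801 to 382 in shSF3B4, 744 to 336 in shU2AF2 and 74 to 1 in shZNF384. With only the groups compared there were 0 in shPABPN1, 2 in shPCBP2, 186 in shSF3B4, 327 in shU2AF2 and 5 in shZNF384, and 104 in shPCBP2 against the other 5. Without the trend, and likewise without the genes that have no spread, shZNF384 had 120 calls, and against the other 5 it had 32 and 39. Without the genes that have no spread shHDAC1 had 0, and shPCBP2 had 91 against the other 5. For 30 pairs of same-numbered libraries the correlation of deviations was −0.01163 to 0.04515. Groups of 2 have mirrored deviations, so pairs of 2 knockdowns repeat the same value for both numbers, and fewer pairs are distinct. No pairing by number was seen in these values. A replicate block, run without shSF3B4, whose numbers are unsettled, left 0 called members for shPABPN1, 3 for shU2AF2 and 0 for shZNF384, and 0 as before for shHDAC1 and shPCBP2. Over all genes the block gave 6 calls in shHDAC1, 232 in shPABPN1, 7 in shPCBP2, 531 in shU2AF2 and 3 in shZNF384. The cause of these moves was not tested. Depth is unknown, and 2 libraries per knockdown limit what could be called.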

Other observations

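Scaffolds and adaptors of the MAP kinase pathways, which are not members by the rule, had calls against shControl in 5 of the 6 knockdowns: 3 of 14 tested genes in shPABPN1, 2 in shPCBP2 and 3 each in shSF3B4, shU2AF2 and shZNF384, all higher. Of all tested genes, 3.99%, 1.05%, 4.26%, 5.88% and 1.44% were called higher in these knockdowns, in that order. The list was chosen with earlier results of these data known, so its counts are no test of it. It holds MAPK1IP1L, whose role as a scaffold or adaptor was not tested. MAPK1IP1L was at 0.32, 0.30 and 0.30 in shControl and at 0.77 in both shU2AF2 libraries. It was at 0.47 in both shSF3B4 libraries and at 0.40 in both shZNF384 libraries, and it stood at 0.27 and 0.31 in shHDAC1. The differences were 0.463 in shU2AF2 (limma adjusted p = 1.83e-06), 0.163 in shSF3B4 (0.000293), 0.0933 in shZNF384 (0.0237) and 0.0633 in shPABPN1 (0.0444). The first 2 held whichever library was left out (adjusted p up to 4.21e-05 and 0.003), and the others were lost in 4 and 12 of 15 omissions. With centred libraries the difference of MAPK1IP1L in shZNF384 was 0.045 and lost its call (adjusted p = 0.537), as did those in shSF3B4 (0.0645) and shPABPN1 (0.228).

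MAPK8IP2, a scaffold of the JNK module, went from 0.143 ± 0.0153 (SD, n = 3) in shControl to 0.295 in shU2AF2, 0.25 in shPABPN1, 0.245 in shPCBP2, 0.225 in shSF3B4 and 0.21 in shZNF384, with limma adjusted p-values from 0.000113 to 0.0387. With libraries centred on their medians, MAPK8IP2 lost its call in shPCBP2, shSF3B4 and shZNF384 (adjusted p of 0.414, 0.356 and 0.751), and its difference in shZNF384, also lost in 10 of 15 omissions of 1 library, shrank from 0.0667 to 0.0183. Its relative MAPK8IP1 rose in shU2AF2 from 0.157 to 0.275 (0.0035). LAMTOR3, an adaptor of MEK1 and ERK at late endosomes, rose from 0.147 to 0.24 in shPABPN1 (limma adjusted p = 0.000618), and also in shPCBP2, to 0.2 (0.0326), and shSF3B4, to 0.195 (0.0161). Centred, the shPCBP2 and shSF3B4 differences were 0.02 and lost their calls (adjusted p of 0.779 and 0.778), and the shPCBP2 call was also lost in 11 of 15 omissions. These comparisons share the 3 control libraries. Among 20 kinases with like names outside the rule, CDK11A was the only one called against shControl in any knockdown, in shZNF384 (0.223 to 0.33, limma adjusted p = 0.0396), and this call was lost in 12 of 15 omissions of 1 library, shControl replicate 1 among them, and with centring, where the difference was 0.0583. ARRB1, which encodes the scaffold beta-arrestin 1, rose in shZNF384 by 0.21 (limma adjusted p = 0.0441), again lost in 12 of 15.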
